A study of Sus scrofa with 8 samples.

Results

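The CLC family comprises chloride channels and chloride/proton exchangers, and the genes described here are CLCN1 to CLCN7. They were taken by gene name from the annotation that served as the read reference for single cells of tracheal submucosal glands (SMGs). All 7 members were present, among 20661 nuclear protein-coding genes with a coding model and 30390 genes in all. The glands, which secrete liquid, mucus and host defense proteins beneath the airway surface, came from newborn pigs, 4 of them wild-type and 4 CFTR-/-, the latter lacking CFTR, the anion channel whose loss causes cystic fibrosis. Each animal gave 1 library of 3′ single-cell RNA sequencing, which reads the part of a transcript near its 3′ end. The annotation is the same for all 8 libraries and holds no value per animal. The lengths and counts below are therefore descriptions of gene models, with no replicate error, no test between genotypes and unknown sequencing depth. Cell counts were not used here, so expression of the members in SMG cells is not described.

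CLC proteins are dimers in which each subunit has its own pathway for chloride. CLCN1 and CLCN2 encode channels of the plasma membrane: CLCN1 sets the resting chloride conductance of skeletal muscle, and CLCN2 is a broadly expressed channel that opens on hyperpolarization. CLCN3 to CLCN7 encode exchangers of intracellular membranes that move chloride against protons, CLCN3 to CLCN6 mainly in endosomes and CLCN7 in lysosomes. A glutamate in the permeation pathway, the gating glutamate, takes part in gating of the channels and in transport by the exchangers. A further glutamate facing the cytosol, the proton glutamate, hands protons to the exchangers and is missing from the channels.

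The codons for these residues are shown first, because the proton glutamate is a residue known to differ between channels and exchangers. Each line gives bases of coding DNA within 1 exon, 5′ to 3′ along the gene, read from the Sscrofa11.1 genome at the coordinates of the deposited annotation. Capitals mark the codon. The gating glutamate codon:

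CLCN2, chr13:122246258-122246287, minus strand: ctaggcagcgggatgccccttggcaaaGAG
CLCN3, chr14:20062023-20062052, minus strand: agtttaggaaaaGAAgggcccttggtacat
CLCN4, chrX:6996131-6996160, plus strand: agcctcggcaaaGAGgggccgctggtgcac
CLCN5, chrX:43796590-43796619, plus strand: agcctgggcaaaGAGggccccctagtgcac
CLCN6, chr6:71897795-71897824, plus strand: tttgtggggaagGAAggcccaatgatccac
CLCN7, chr3:40412211-40412240, plus strand: GAAgggcccatgattcactcgggctccgtg

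The site was located in each protein by a short motif that includes this glutamate, so the residue follows from the choice. The glutamate codon in the 6 genes shown was GAG in CLCN2, CLCN4 and CLCN5 and GAA in CLCN3, CLCN6 and CLCN7. In CLCN2 the codon was the last of a 134-bp coding exon, which was exon 3 of 22 in the transcript with the longest coding sequence. In CLCN3, CLCN4 and CLCN5 it began at base 115 of a 207-bp exon. In CLCN6 it began at base 18 of a 68-bp exon, and in CLCN7 at base 1 of an 84-bp exon. The proton glutamate codon:

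CLCN2, chr13:122245779-122245808, minus strand: ttcagcatcgagGTCacttccaccttcttt
CLCN3, chr14:20059039-20059068, minus strand: attggaggagttcttttcagcctggaaGAG
CLCN4, chrX:6996399-6996428, plus strand: atcgggggtgtgcttttcagtctggaaGAG
CLCN5, chrX:43801239-43801268, plus strand: atcggcggagtattattcagcctggaaGAG
CLCN6, chr6:71900357-71900386, plus strand: ttcagtctggagGAGggctcgtccttctgg
CLCN7, chr3:40412997-40413026, plus strand: ttcagcttggagGAGggcgcgtccttctgg

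This site was taken as a column of the protein alignment with glutamate in all exchangers and valine in both channels. The residues therefore follow from the choice, and a difference between the classes at this site was not tested. The choice did not set which codon was used for a residue. The glutamate codon was GAG in 5 of 5 exchanger genes, and the valine codon of the channel gene CLCN2 was GTC. The share of GAG among the glutamate codons of all genes was not measured, so this count has no background to compare with. In CLCN3, CLCN4 and CLCN5 the codon was the last of an 81-bp exon. It began at base 21 of a 126-bp exon in CLCN2, at base 92 of a 133-bp exon in CLCN6 and at base 24 of a 65-bp exon in CLCN7. The distance between the gating and the proton site was 60 codons in CLCN1 and CLCN2, 57 codons in CLCN3, CLCN4 and CLCN5, and 67 codons in CLCN6 and CLCN7. That stretch was cut by 3 introns in each channel gene, by 1 intron in CLCN3, CLCN4 and CLCN5 and by 2 introns in CLCN6 and CLCN7. Among the 621 gap-free columns of the alignment of the 7 proteins, 77 (12.4%) were identical in all members. A further 32 columns held 1 residue in both channels and another in all exchangers. Glutamate in all exchangers and in neither channel was found in 3 columns, and the one with valine in both channels was taken as the proton glutamate.

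The channel genes were divided into many short coding exons, whereas the exchangers held contrasting exon plans. In the transcript with the longest coding sequence of each gene, CLCN1 had 23 coding exons and CLCN2 had 22. The other CLCN2 transcripts had 19 to 24. Among the exchangers, CLCN3 and CLCN4 had 13 each and CLCN5 had 11, but CLCN6 had 24 and CLCN7 had 26. The median was 22.5 for the channels and 13 for the exchangers, a difference of 9.5, with the channels inside the range of the exchangers. Over all protein-coding genes the median was 7 coding exons (interquartile range, 3 to 13), and CLCN7 had more than 93.9% of them. The median coding exon was 112 bp long in CLCN1 and 108 bp in CLCN2. It was 160 bp in CLCN3, 144 bp in CLCN4, 187 bp in CLCN5, 107.5 bp in CLCN6 and 84 bp in CLCN7. The median over all genes was 138 bp. The longest coding exon of CLCN3 measured 546 bp and that of CLCN5 543 bp, and they lie at the same place in the protein.

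Some of the exons of CLCN4 and CLCN6 are set apart by gaps too short to be spliced introns. The stretch that is 1 exon in CLCN3 and CLCN5 is written in CLCN4 as exons of 79, 111 and 350 bp, separated by gaps of 2 bp. RefSeq states for this model that 2 bases were inserted in 2 codons. CLCN6 has a gap of 2 bp between exons of 80 and 74 bp, and RefSeq states 1 inserted base in 1 codon. With such gaps joined, CLCN4 has 11 coding exons and CLCN6 has 23. A coding intron under 10 bp was found in 2 of 7 members, both exchangers, and in 11.5% of all protein-coding genes. None of the 19 coding transcripts of the members had an internal stop codon.

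**Figure D1:**
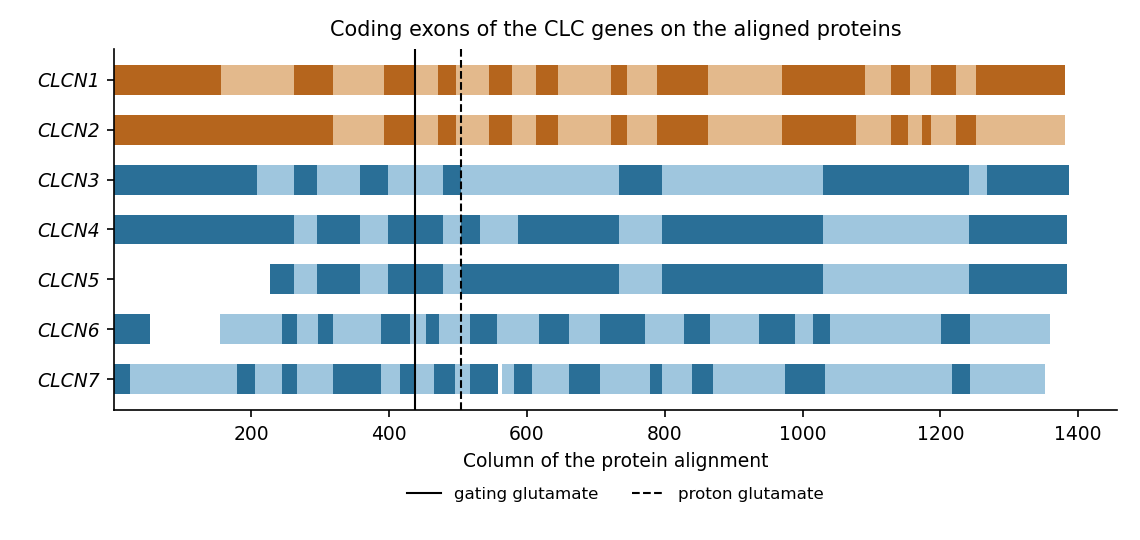
Coding exons of the 7 members (rows) drawn on the columns of their protein alignment (horizontal axis), in alternating dark and light shades, with channels in brown and exchangers in blue; a bar also spans gaps inside an exon. Lines mark the gating glutamate at column 437 and the proton glutamate at column 504, and exon borders line up within CLCN1 and CLCN2 and within CLCN3, CLCN4 and CLCN5.

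Intron positions were compared by alignment column and codon phase, the place within the codon at which the intron falls. Each gene was read from the transcript with its longest coding sequence. For CLCN2 this was variant X6, which starts in a 424-bp coding exon that the other 6 transcripts lack. CLCN1 and CLCN2 shared 18 of the 25 positions found in either (72%), and 54.3% of 888 aligned residues were identical. CLCN4 and CLCN5 shared 10 of 12 positions (83.3%) at 77.8% identity. CLCN3 shared 10 of 12 with CLCN5 (83.3%) at 74.9% identity and 10 of 14 with CLCN4 (71.4%) at 75.2% identity. These 4 pairs of 21 shared over 50% of their positions. With the 2-bp gaps left out, CLCN4 and CLCN5 shared all 10 of 10.

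CLCN6 and CLCN7 were each other's closest member, yet their exon plans differed. They shared 8 of 40 positions (20%) at 46.4% identity. With CLCN3, CLCN4 and CLCN5, CLCN6 shared 0 positions, and CLCN7 shared 1 position, at identities from 31.9 to 32.7%. Of the 10 pairs of a channel with an exchanger, 6 shared 0 positions, namely every pair with CLCN3, CLCN4 or CLCN5, and the remaining 4 shared 1 position each. Identity in the 10 pairs was 25.3 to 29.2%. The position that crosses the classes lies at alignment column 319, phase 1, in CLCN1, CLCN2, CLCN6 and CLCN7. In all, 77 distinct positions were found, of which 42 occurred in 1 member, 18 in both channels and 10 in CLCN3, CLCN4 and CLCN5 together. The 77 and the 42 include the 2-bp gaps of CLCN4 and CLCN6, each at a position found in 1 member. No position occurred in all 5 exchangers.

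**Figure D2:**
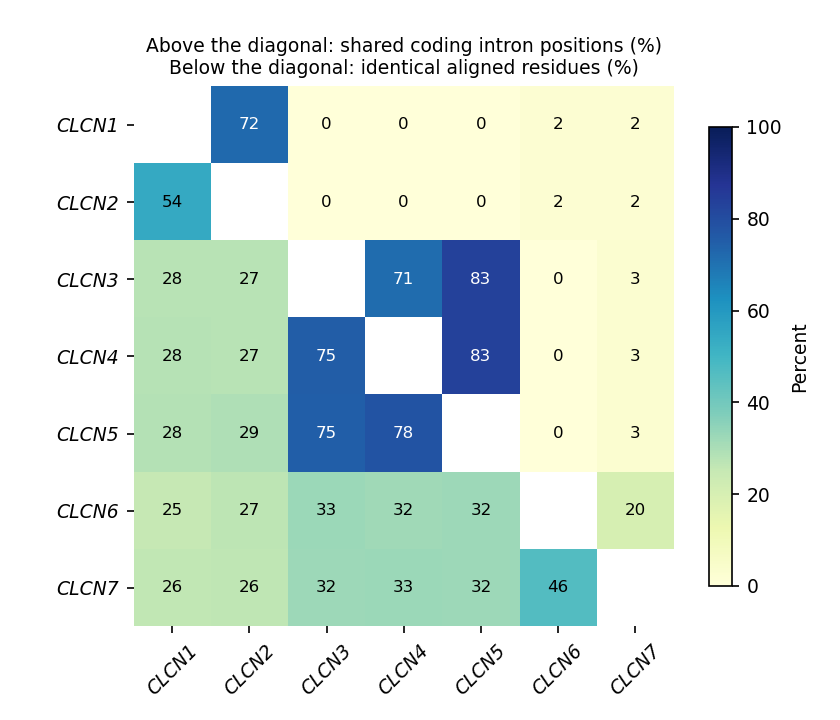
Percent of coding intron positions shared (above the diagonal) and percent of identical aligned residues (below it) for the 21 pairs of members, with gene names on both axes. The dark cells are CLCN1 with CLCN2 (72% of introns shared) and the pairs among CLCN3, CLCN4 and CLCN5 (71.4 to 83.3%), whereas CLCN6 with CLCN7 reached 20%.

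Exon lengths also matched within these groups. In CLCN1 and CLCN2, 8 consecutive coding exons of 129, 134, 78, 79, 126, 85, 102 and 85 bp were equal in length, 818 bp in all. The next exon was 150 bp in CLCN1 and 156 bp in CLCN2, and the exons of 70, 111, 214 and 134 bp that follow were again equal. CLCN2 was read here from variant X6, which starts in a 424-bp coding exon. In its other 6 transcripts, an exon of 132 bp precedes the run, as in CLCN1, so the run is longer there. CLCN3, CLCN4 and CLCN5 shared a run of 5 exons of 100, 188, 123, 207 and 81 bp, 699 bp in all, and later exons of 187, 399 and 217 bp. Between a channel and an exchanger, no run was longer than 1 exon. The same held between CLCN6 and CLCN7, and between either of them and CLCN3, CLCN4 or CLCN5.

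Coding sequences were slightly longer in the channels. The longest coding sequence was 2958 bp (986 codons) in CLCN1 and 2772 bp (924 codons) in CLCN2. Among the exchangers it was 2784 bp (928 codons) in CLCN7, 2607 bp (869 codons) in CLCN6 and 2598 bp (866 codons) in CLCN3, and the shortest were 2274 bp (758 codons) in CLCN4 and 2238 bp (746 codons) in CLCN5. The medians were 2865 bp for channels and 2598 bp for exchangers, 267 bp apart, and CLCN7 exceeded CLCN2. With the shortest coding sequence of each gene instead, the medians were 2400 and 2274 bp, 126 bp apart. All members lay above the median of 1218 bp over all protein-coding genes.

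**Figure D3:**
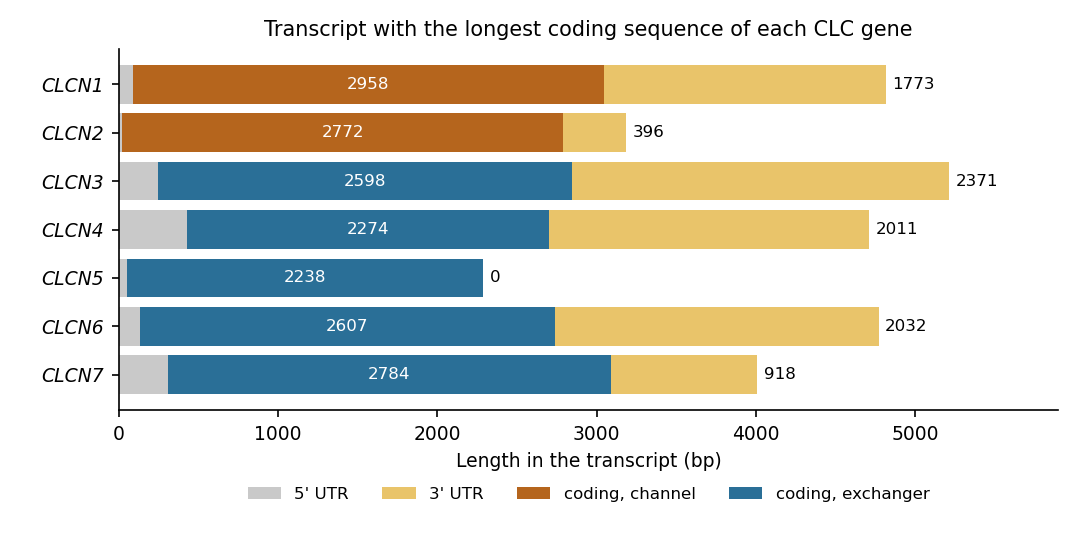
Length in bp (horizontal axis) of the 5′ UTR (grey), coding sequence (brown for channels, blue for exchangers, with its length written inside) and 3′ UTR (yellow, with its length written beside it) in the transcript of each member with the longest coding sequence. The 3′ UTR runs from 0 bp in CLCN5 to 2371 bp in CLCN3.

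Transcript numbers ranged from 2 to 7 in the channels and from 1 to 5 in the exchangers. The 7 members had 19 coding transcripts, 9 in the channels and 10 in the exchangers, each with its own coding sequence. CLCN2 had 7, CLCN3 had 5, and CLCN1 and CLCN7 had 2 each. CLCN4, CLCN5 and CLCN6 had 1 each, as did 51.1% of all protein-coding genes. The median was 4.5 for the channels and 1 for the exchangers. In NCBI's model evidence, which comes from other pig RNA and not from these glands, the number of RNA-seq samples supporting all introns of a member transcript ran from 9 (CLCN1 variant X2) to 182 (CLCN3 variants X3 and X5). This number is stated for 18 member transcripts and not for the CLCN5 transcript. Its median over the coding transcripts of all genes that state it was 50.

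CLCN1 variant X2 lacked the exons of 214 and 134 bp and coded for 870 codons. It began 1087 bp upstream of variant X1 and had a 5′ UTR of 1175 bp, compared with 88 bp in X1. In CLCN2, 14 of 27 distinct coding segments occurred in all 7 transcripts. Its start codon varied, lying in a 78-bp coding exon in 6 transcripts and in a 424-bp coding exon in variant X6, 2.5 kb from the 5′ end of the gene. The 156-bp exon was in 5 of the 7 transcripts. Variant X7 ended 5900 bp short of the others, with a 32-bp last coding exon, 730 codons and a 3′ UTR of 135 bp.

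CLCN3 varied at both ends of its protein. The start codon of variants X1 and X3 lay 10.2 kb from the 5′ end of the gene in a coding exon of 160 bp. That of X2 and X5 lay at 36.2 kb with 79 bp, and that of X4 at 53.1 kb with 144 bp. At the other end, X3 and X5 finished with an 88-bp coding exon, the length of the last coding exon in CLCN4 and CLCN5. X1, X2 and X4 added a 76-bp exon and finished with 156 bp. These variants had a 3′ UTR of 2371 bp, and X3 and X5 had 2439 bp, with the same 3′ end. In all 5 transcripts, 9 of 16 coding segments were common. In CLCN7, 23 of 27 segments were common to its transcripts, and variant X2 began 5.295 kb downstream of X1 and coded for 747 codons in place of 928.

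The 3′ UTR, the part of a transcript closest to the reads of a 3′ library, was measured in the coding transcript with the most distal 3′ end. Ties went to the longest coding sequence. The length ranged from 0 bp in CLCN5 to 2371 bp in CLCN3, where variants X3 and X5 have the same 3′ end and 2439 bp. In the channels it was 1773 bp in CLCN1 and 396 bp in CLCN2. In the exchangers it was 2371 bp in CLCN3, 2032 bp in CLCN6, 2011 bp in CLCN4, 918 bp in CLCN7 and 0 bp in CLCN5. The medians were 1084.5 bp for the channels and 2011 bp for the exchangers, a difference of −926.5 bp, and both channels lay between CLCN5 and CLCN4, so the classes overlapped. Over all protein-coding genes the median was 716 bp (interquartile range, 211 to 1865 bp). CLCN3 exceeded 81.2% of genes, and CLCN2 exceeded 36.5%. A 3′ UTR under 100 bp was found in 1 of 7 members and in 15.7% of all protein-coding genes, and one of 0 bp in 8.82% of genes.

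CLCN5 encodes the endosomal exchanger that is lost in Dent disease of the kidney. Its model was marked partial and ended at the stop codon, with a last exon of 91 bp. The last 500 bases of this transcript lay in 3 exons and held 0% of 3′ UTR, whereas they were 100% 3′ UTR in CLCN1, CLCN3, CLCN4, CLCN6 and CLCN7 and 79.2% in CLCN2. RefSeq states 6 substitutions and 99% coverage in the alignment of this transcript to the genome. The next gene on the same strand began 34.2 kb downstream, and the 5000 bp after the model held 0 unknown bases.

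**Figure D4:**
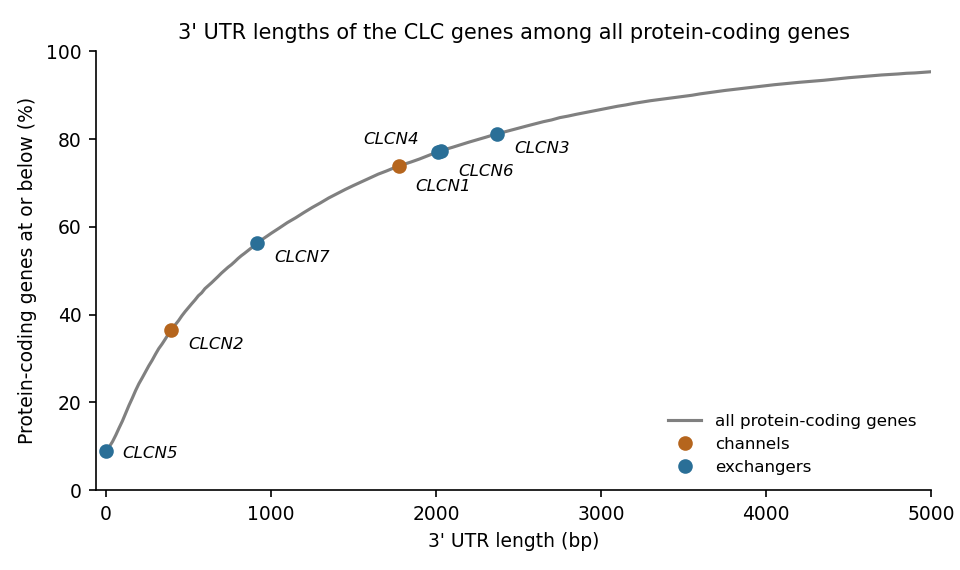
Share of all protein-coding genes (vertical axis, %) with a 3′ UTR at or below a given length (horizontal axis, bp), with the channels (brown) and exchangers (blue) marked on the curve. CLCN5 sits at 0 bp, CLCN2 at 396 bp, CLCN7 at 918 bp, and the other 4 members between 1773 and 2371 bp.

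A poly(A) signal, the hexamer upstream of the cleavage site of a transcript, was searched for as AATAAA or ATTAAA on the strand of the gene in the last 50 bp before the 3′ end. It was present in 5 of 7 members and in 60.9% of all protein-coding genes. AATAAA began 48 bp before the end in CLCN1, 24 bp in CLCN2, 27 bp in CLCN4 and 21 bp in CLCN7, and ATTAAA began 19 bp before the end in CLCN3. CLCN5 and CLCN6 had neither hexamer in this window. Beyond their ends, the first hexamer followed after 2565 bp at CLCN5 and after 989 bp at CLCN6. In CLCN5 the window held no 3′ UTR, since the partial model ends at the stop codon. A hexamer match is a description of sequence and not of cleavage.

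The 5′ UTR, taken in the transcript that starts farthest 5′, was 1175 bp in CLCN1, 200 bp in CLCN2, 257 bp in CLCN3, 426 bp in CLCN4, 49 bp in CLCN5, 132 bp in CLCN6 and 307 bp in CLCN7. The medians were 687.5 bp for the channels and 257 bp for the exchangers. This order rested on CLCN1 variant X2. In the transcripts with the longest coding sequence, the medians were 53.5 and 247 bp, so the direction reversed. The median over all protein-coding genes was 185 bp.

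As modelled, CLCN3 and CLCN4 were spread over far more genomic sequence than the other members. The span of CLCN5 is that of 1 transcript, which is marked partial and has a 5′ UTR of 49 bp. CLCN3 spanned 89.5 kb and CLCN4 spanned 80.1 kb, with longest introns of 42.7 and 36.0 kb. In CLCN4 the start codon lay 37.5 kb from the 5′ end of the gene, behind noncoding exons. The other exchangers spanned 33.1 kb (CLCN6), 30.5 kb (CLCN5) and 23.2 kb (CLCN7), and the channels 39.0 kb (CLCN1) and 15.2 kb (CLCN2). Coding bases made up 2.84% of the span of CLCN4 and 18.3% of that of CLCN2. The medians were 27075 bp for channels and 33105 bp for exchangers, with overlapping ranges. The median over all protein-coding genes was 19194 bp.

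Base composition separated close relatives. GC at the third codon position was 86.0% in CLCN4 and 62.9% in CLCN5, although their proteins were 77.8% identical, and it was 58.2% in CLCN3. It reached 87.5% in CLCN7, higher than in 95.5% of genes, and was 75.3% in CLCN6, 73.1% in CLCN2 and 69.1% in CLCN1. The median over all protein-coding genes was 64.2%. The channels thus lay between the extremes of the exchangers.

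Introns of the members began with GT and ended with AG in 132 of 136 cases (97.1%), compared with 98.7% over all protein-coding genes, counting each intron of at least 10 bp once. The other 4 were named after their bases were seen. CLCN1 had 2 introns of the form GC to AG, of 6272 and 95 bp. CLCN2 had one of 222 bp from GT to TG, used by 2 of 7 transcripts. CLCN7 had one of 95 bp from GG to AG, directly before the 84-bp exon that opens with the gating glutamate codon.

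On Sscrofa11.1, CLCN1 (NCBI gene 100520812) lies on chromosome 18 from 6902540 to 6941530 and CLCN2 (397147) on chromosome 13 from 122234731 to 122249889, both on the minus strand. CLCN3 (100156049) lies on chromosome 14, minus strand, from 20037628 to 20127160. CLCN4 (100151985) and CLCN5 (397263) lie on the plus strand of chromosome X, from 6939637 to 7019745 and from 43779016 to 43809472. CLCN6 (100511997) lies on chromosome 6 from 71881912 to 71915016, and CLCN7 (100626534) on chromosome 3 from 40397807 to 40420960, both on the plus strand. The authors had edited the 3′ ends of other genes. For the members, all 19 transcripts had the same exons as in RefSeq.

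The channel genes met a FAM131 gene tail to tail. The 3′ end of CLCN1 overlapped that of FAM131B by 483 bp, and the 3′ end of CLCN2 overlapped that of FAM131A by 80 bp, in each case on opposite strands and within exons. The FAM131 family was singled out after these positions were seen. CLCN3 overlapped LOC100158040, annotated as histone PARylation factor 1, by 164 bp in the same arrangement. In total, 3 of 7 members had the 3′ end of an opposite-strand coding gene within 1000 bp of their own, as had 9.51% of all protein-coding genes.

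CLCN7 was the member that shared exon bases with a gene on its own strand, which held for 3.34% of all protein-coding genes. The first exon of CCDC154 lies inside the 3′ UTR of CLCN7, on chromosome 3 from 40420339 to 40420504, and the overlap was 166 bases. It starts 297 bp after the stop codon and leaves 456 bases of the 3′ UTR before the end of CLCN7. Cell Ranger does not count a read that lies in exons of more than 1 gene on the same strand. How many reads fell there was not analysed here.

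**Figure D5:**
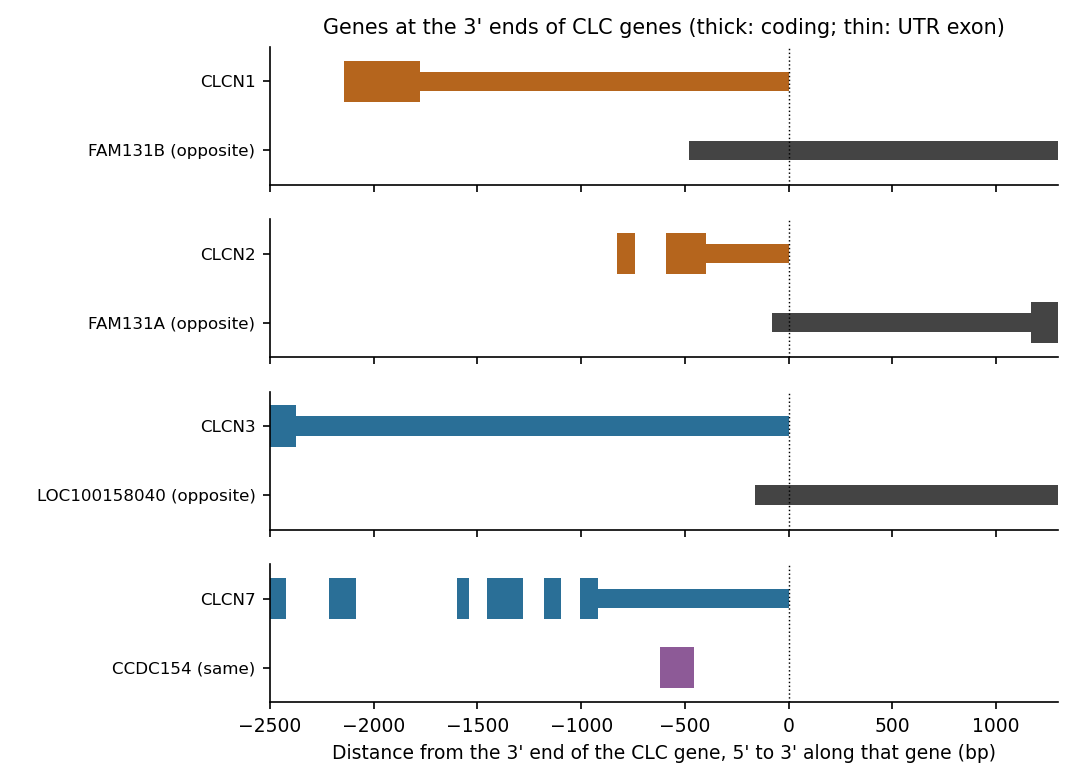
Exons at the 3′ ends of CLCN1, CLCN2, CLCN3 and CLCN7 and of the genes beside them, by distance in bp from the 3′ end of the CLC gene (horizontal axis, 5′ to 3′ along that gene); thick bars are coding, thin bars are UTR, grey is the opposite strand and purple the same strand. FAM131B reaches 483 bp into CLCN1 and FAM131A 80 bp into CLCN2, and the CCDC154 exon of 166 bases lies within the 3′ UTR of CLCN7.

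At its 5′ end, CLCN2 started 197 bp from POLR2H, an opposite-strand gene for a subunit of the RNA polymerases. CASP2, a caspase gene, lay 4901 bp upstream of CLCN1 on the same strand, and NPPA, which encodes atrial natriuretic peptide, lay 4540 bp downstream of CLCN6 on the opposite strand. The long noncoding RNA gene LOC106507362 overlapped the span of CLCN7 by 1582 bp and shared 0 exon bases with it. CLCN4 and CLCN5 had no gene within 5000 bp. On the strand of CLCN5, the microRNA genes MIR362, MIR500 and MIR532 lay 67.2, 67.7 and 73.7 kb upstream of its model, a feature named after it was seen. That model is marked partial, so these distances hold for its annotated start and do not place the microRNA genes outside CLCN5.

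Known partner proteins of the family were looked up as well, and 5 genes were present. BSND, which encodes the accessory subunit barttin, had a 3′ UTR of 1514 bp. OSTM1, the partner of CLCN7, had 2224 bp, and HEPACAM, the glial partner of CLCN2, had 1843 bp. TMEM9 and TMEM9B, partners of CLCN3 to CLCN5, had 721 and 1017 bp. All 5 had the exons of RefSeq.

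The 10 anoctamins, the family of calcium-activated chloride channels and scramblases, gave a scale for these values. Their median 3′ UTR was 1514 bp (0 to 3052 bp), compared with 1773 bp (0 to 2371 bp) in the 7 CLC members. Median coding length was 3019.5 bp in the anoctamins and 2607 bp in the CLC members, and the median number of coding exons was 22.5 and 22. The median gene span was 197894 bp in the anoctamins and 33105 bp in the CLC members. A 3′ UTR under 100 bp occurred in 1 of 10 anoctamins and 1 of 7 CLC members.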

How the data were processed

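SMG libraries of 4 wild-type and 4 CFTR-/- newborn pigs were made by the authors with 3′ chemistry and counted with Cell Ranger (3.0.2 in the submitters' processing notes). The authors deposited their edition of NCBI Sus scrofa Annotation Release 106, in which they had changed 3′ UTRs, overlaps and gene names. It lists start and end coordinates on Sscrofa11.1, with the first base as 1. Depth per library is unknown.

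UTRs were exon bases outside the coding sequence and stop codon. Coding sequences were read from the genome, translated and aligned with MAFFT 7.526 (L-INS-i). Introns matched when alignment column and phase were equal. Python 3.11.15, pysam 0.24.0, Biopython 1.88, numpy 2.4.6, samtools 1.23.1 and matplotlib 3.10.9 were used. Measures were tested on 200 simulated gene models, and 200 were recovered. The members and the lists (partner genes, anoctamins, neighbors within 5000 bp) were chosen with earlier results of these data known. No test was run, since genes are not replicates, and values stand beside those of all protein-coding genes. Some genes and sequences that these lists cover are not reported here.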

Additional observations from a re-analysis of the deposited data

How the results depend on the processing

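Over 10 results, 23 alternatives were run, of which 3 were chosen after seeing the data (introns under 10 bp joined or left out, and the transcript with most supporting RNA-seq samples). In 20 the value kept its direction and stayed within 1.5 times. Some of these could not differ from the main value. In every member the transcript measured for the 3′ UTR was also the one with the longest coding sequence, which fixed that alternative. All 19 member transcripts had the exons of RefSeq, which fixed the RefSeq alternative for the 3′ UTR. Each was coding with its own coding sequence, which fixed the counts of distinct coding sequences and of all transcripts. The 5′ UTR difference (430.5 bp, channels minus exchangers) reversed to −193.5 bp in the transcripts with the longest coding sequence and was 229 bp as a median over transcripts, since the long 5′ UTR is in CLCN1 variant X2 alone. The coding length difference (267 bp) was 126 bp with the shortest coding sequences. The channels are 2 genes, so their median moves with either. No paired analysis was possible because gene models carry no sample values, which also leaves the depth unknown.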
